A study of Mus musculus with 6 samples.

Results

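The 9 genes of the oligodendrocyte and its myelin sheath studied here, Mbp, Mog, Mag, Cnp, Mobp, Cldn11, Mal, Opalin and Ermn, were followed through a single-cell RNA table of the mouse hippocampal CA1 region. They were chosen by name, and all 9 were among the 20234 genes of the table. Male C57Bl6 mice received 1 injection of placebo (3 mice, numbered 1, 3 and 5) or of recombinant human erythropoietin (EPO, 5000 IU/kg; 3 mice, numbered 2, 4 and 6) at postnatal day 28 (P28) and were sacrificed after 6 h. Cells were dissociated with papain and captured in droplets (Drop-seq), in which each captured RNA molecule is counted once by its unique molecular identifier (UMI). No genetic modification is named in the labels of these mice, and each sample is numbered as 1 mouse. Values of single mice are given in this order throughout, mouse 1, 3, 5 for placebo and mouse 2, 4, 6 for EPO. A D number in the sample labels, not explained there, is D1 for mice 1, 2 and 3 and D2 for mice 4, 5 and 6. D1 thus holds placebo mice 1 and 3 but only EPO mouse 2, and D2 holds EPO mice 4 and 6 but only placebo mouse 5. Each difference given within a D number therefore sets a single mouse against the mean of the others.

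Myelin is the compacted membrane that oligodendrocytes wrap around axons. In the lineage, proliferating oligodendrocyte precursor cells (OPC), marked by the receptor Pdgfra, pass through a short committed stage marked by Gpr17 and Enpp6 and then become myelin-forming oligodendrocytes. Mbp encodes the basic protein that holds the cytoplasmic faces of myelin together, and its mRNA, like that of Mobp, another basic myelin protein, is known to be carried into the cell processes. Cnp encodes a phosphodiesterase of non-compact myelin and Mag an adhesion protein facing the axon. Mog is a surface protein of the outermost myelin, Cldn11 the tight junction protein of the sheath, Mal a raft protein of membrane sorting, Opalin a membrane glycoprotein and Ermn an actin-binding protein of mature oligodendrocytes.

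Of 6000 barcodes, 1000 per mouse, 1632 held more than 500 and up to 8000 detected genes and at most 40% of mitochondrial UMIs and were retained as cells. Placebo mice 1, 3 and 5 gave 275, 90 and 319 cells, and EPO mice 2, 4 and 6 gave 253, 405 and 290. Their summed depth ran from 267231 UMIs in placebo mouse 3 to 2150763 in EPO mouse 4. Clusters were made without the 9 genes and named from other markers, which yielded 158 oligodendrocyte-like, 232 astrocyte-like, 849 glutamatergic-like, 80 GABAergic-like, 98 microglia-like, 91 endothelial-like and 52 mural-like cells. A cluster of 72 precursors split at a finer resolution into 46 OPC-like and 26 committed precursor-like cells. The 4292 barcodes with 500 genes or fewer, which can hold free RNA and debris, served as background. An irregularity precedes all results: 41 retained barcodes occurred in both placebo mouse 1 and EPO mouse 4, all 41 in the same cell class in both, with a median of 24.8% as many UMIs in EPO mouse 4 and a median correlation over genes of 0.71. The cause was not tested, and the correlation was not set against that of unrelated cells of the same class. Of the 41 barcodes, 9 were oligodendrocyte-like in both mice. The EPO comparisons of the 9 genes are therefore also given without every barcode found in more than 1 mouse (93 retained cells). So is the level of Mbp in committed precursor-like cells.

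Promoter windows from RefSeq (build GRCm38.p6) were examined for 8 of the 9 genes. The promoter of Mbp was left out, and its position is not given here. In GENCODE annotation of GRCm38, Mag lies at chr7:30899176-30914873 on the minus strand, Cnp at chr11:100574904-100591729 on the plus strand, Mal at chr2:127633226-127656695 on the minus strand and Opalin at chr19:41061710-41077113 on the minus strand. The other positions are chr17:37010743-37023398 for Mog (minus), chr9:120149707-120181484 for Mobp (plus), chr3:31149920-31164324 for Cldn11 (plus) and chr2:58045113-58052864 for Ermn (minus). Exons of Cnp overlap exons of Dnajc7, and exons of Ermn those of Galnt5, in each case on the opposite strand. The 200 bases before the start are shown for Cnp and Mag, which were present at the committed stage, and for Mal and Opalin, which were nearly absent from it. Capitals mark letters of a SOX motif (ACAANG) or of a MYRF motif (CTGGNAC), sought on both strands.
Cnp, chr11:100574704-100574903, plus strand: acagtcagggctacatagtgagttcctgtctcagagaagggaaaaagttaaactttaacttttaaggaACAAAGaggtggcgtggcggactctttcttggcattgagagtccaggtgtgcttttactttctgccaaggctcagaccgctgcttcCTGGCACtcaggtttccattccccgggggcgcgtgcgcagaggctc
Mag, chr7:30914874-30915073, minus strand: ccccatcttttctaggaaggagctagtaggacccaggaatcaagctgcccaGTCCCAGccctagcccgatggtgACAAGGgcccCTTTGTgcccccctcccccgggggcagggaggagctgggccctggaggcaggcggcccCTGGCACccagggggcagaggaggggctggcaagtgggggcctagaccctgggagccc
Mal, chr2:127656696-127656895, minus strand: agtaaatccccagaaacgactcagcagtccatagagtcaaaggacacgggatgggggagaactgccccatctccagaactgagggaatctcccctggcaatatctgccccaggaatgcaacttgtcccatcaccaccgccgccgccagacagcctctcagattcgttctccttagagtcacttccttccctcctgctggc
Opalin, chr19:41077114-41077313, minus strand: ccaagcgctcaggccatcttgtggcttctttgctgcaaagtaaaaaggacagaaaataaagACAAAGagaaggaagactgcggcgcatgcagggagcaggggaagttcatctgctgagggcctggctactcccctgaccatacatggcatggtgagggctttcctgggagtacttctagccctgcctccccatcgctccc
The Cnp window held 1 match to each motif, the Mag window 2 matches to each, the Opalin window 1 SOX match, and the Mal window none. Bases just after the start used for Mag matched no annotated transcript, unlike those of the other windows, and the cause was not tested. Of the windows not shown, that of Mobp held 5 SOX matches and that of Mog 1 MYRF match, while those of Cldn11 and Ermn held neither motif. Cldn11 was also present at the committed stage, and Mog was low there. A link between motif and stage was not tested. Among all 8 windows, 4 held the SOX motif and 3 the MYRF motif, whereas 30.0% and 13.1% of 32851 promoter windows of this length did. None of the 8 held the E-box CAGCTG or a TATAAA. Such matches describe letters only and are no binding sites.

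The 9 genes were strongly concentrated in oligodendrocyte-like cells. These cells held 10.97% of all retained UMIs but 85.4% of the 45480 UMIs of the 9 genes, and committed precursor-like cells a further 6.62%. Levels are CPM, the UMIs of a gene per 1e+06 UMIs summed over the cells of a class. The label of the cell class rests on other genes: oligodendrocyte-like cells carried Ugt8a (myelin galactolipid synthesis) at 1805 and Trf (transferrin) at 2362 CPM, whereas Pdgfra had 1 UMI and the astrocyte water channel Aqp4 1 UMI in the whole class. Summed over the 9 genes, the level in oligodendrocyte-like cells was 46947 CPM ± 5431 (SD, n = 6 mice), lowest in placebo mouse 1 at 39448 CPM and highest in EPO mouse 6 at 52816 CPM. Single cells devoted 1.25 to 7.61% of their UMIs to the 9 genes, with a median of 4.34%.

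**Figure D1:**
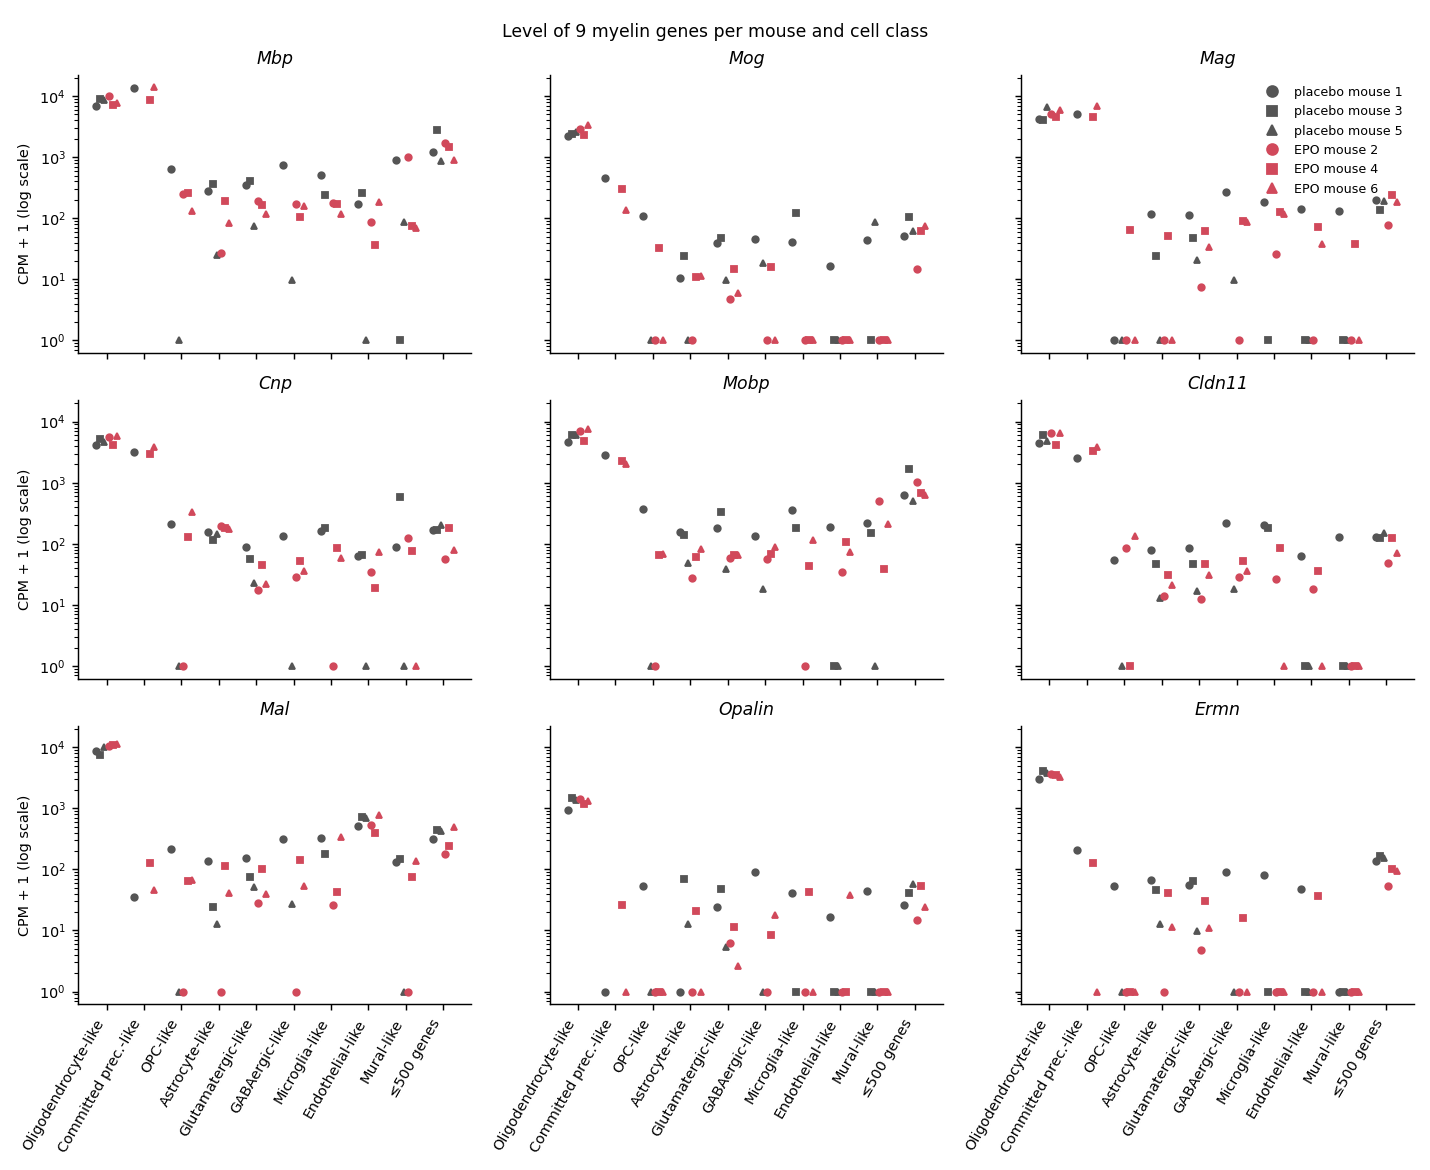
Level of each gene (CPM + 1, logarithmic axis) in every cell class and in the barcodes with 500 genes or fewer; each point is 1 mouse with at least 5 cells of the class, grey for placebo and red for EPO. All 9 genes are highest in oligodendrocyte-like cells, apart from Mbp, which is higher in committed precursor-like cells when all cells are summed, and Mag, which is about as high there in the sums but at 66.0% of the oligodendrocyte-like level when every cell is thinned to 800 UMIs.

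Each gene had a narrow range among the 6 mice within this class. Mbp ran from 6942 to 10204 CPM with a median of 8159, Mal from 7518 to 11367 CPM with a median of 10339, and Mobp from 4700 to 7473 CPM with a median of 6050. The coefficient of variation over mice was between 10.5% for Ermn and 19.8% for Mag. UMIs mark the 3′ ends of molecules and were not divided by gene length, so levels are compared here for one gene between cells and not between genes. Mbp, Mag and Mobp were detected in every oligodendrocyte-like cell. Opalin was the least often detected, in 88.6% of cells (95% exact binomial interval 82.6 to 93.1%), and in 54.4% when every cell was thinned to 800 UMIs. Intervals of this kind cover counting error only.

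OPC-like cells held very little of any member. Their 46 cells had 77 UMIs of the 9 genes among 89734, and 22 of the 46 had none. Mbp stood at 312 CPM (28 UMIs; 95% exact Poisson interval 207 to 451) and Cnp at 189 CPM (17 UMIs; 110 to 303), which are 4.01% and 4.07% of their levels in oligodendrocyte-like cells. Opalin and Ermn had 1 UMI each. Summed over the 9 genes and all cells, OPC-like cells stood at 858 CPM, a level also seen outside the lineage. It was 1013 CPM in microglia-like, 896 in endothelial-like, 816 in mural-like, 578 in astrocyte-like and 482 in neuron-like cells. The part of background RNA in the OPC-like counts was not tested. Pdgfra in the same cells stood at 1972 CPM, so the class carried its own marker at this depth. The summed level was 1712 CPM in placebo mouse 1 and 605 CPM in EPO mouse 4, the mice that share barcodes, against 0, 334 and 731 CPM in placebo mouse 5 and EPO mice 2 and 6.

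In committed precursor-like cells the 9 genes stood at very different shares of their oligodendrocyte-like level, from Mbp, which was higher, to Mal, which was nearly absent. Mbp reached 11485 CPM (interval 10873 to 12122), or 148% of its level in oligodendrocyte-like cells, and Mag 5080 CPM (4676 to 5510), or 105%. Cnp stood at 77.3%, Cldn11 at 62.4% and Mobp at 43.8% of the oligodendrocyte-like level. By contrast, Mog stood at 12.8%, Opalin at 5.11%, Ermn at 3.53% and Mal at 0.608%. In these sums deeper cells weigh more. With every cell thinned to 800 UMIs, Mbp stood at 123% and Cnp at 80.4%, but Mag at 66.0%, Cldn11 at 36.5% and Mobp at 29.7% of the oligodendrocyte-like level, so that Mag was lower than in oligodendrocyte-like cells. Mog then stood at 15.6%, Opalin at 8.81% and Mal at 0.48%, and no Ermn UMI was left. Mal, with 7 UMIs of 114762 in these 26 cells, was thus 165-fold lower than in oligodendrocyte-like cells, where it supplied 8672 UMIs.

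Mbp was high and Mal low in each of the 3 mice with at least 5 committed precursor-like cells. Mbp was 13318 CPM in placebo mouse 1, 8652 CPM in EPO mouse 4 and 13972 CPM in EPO mouse 6. Mal was 34.9, 125 and 44.8 CPM in these mice, or 1, 5 and 1 UMIs, and without EPO mouse 4 Mal stood at 0.279% of the oligodendrocyte-like level. Of the 7 UMIs of Opalin, 6 came from 2 cells of placebo mouse 5. Without barcodes found in more than 1 mouse, Mbp stood at 131% of the oligodendrocyte-like level. Pdgfra had no UMI in these cells, where a count of 0 allows up to 26.1 CPM, whereas Enpp6 stood at 1394 CPM and Gpr17 at 1002 CPM. Gpr17 was about as high in OPC-like cells, at 1048 CPM, whereas Enpp6 was at 22.3 CPM there. Of Enpp6 and Gpr17, only Enpp6 thus set the committed precursor-like cells apart from OPC-like cells. The committed precursor-like cells were uneven, with 0.0344 to 5.52% of UMIs from the 9 genes. Of the 26, 15 lay at or above the lowest oligodendrocyte-like cell, while none of the OPC-like cells did. Since the cells were clustered on their own transcripts, these differences between classes are a description without a test.

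**Figure D2:**
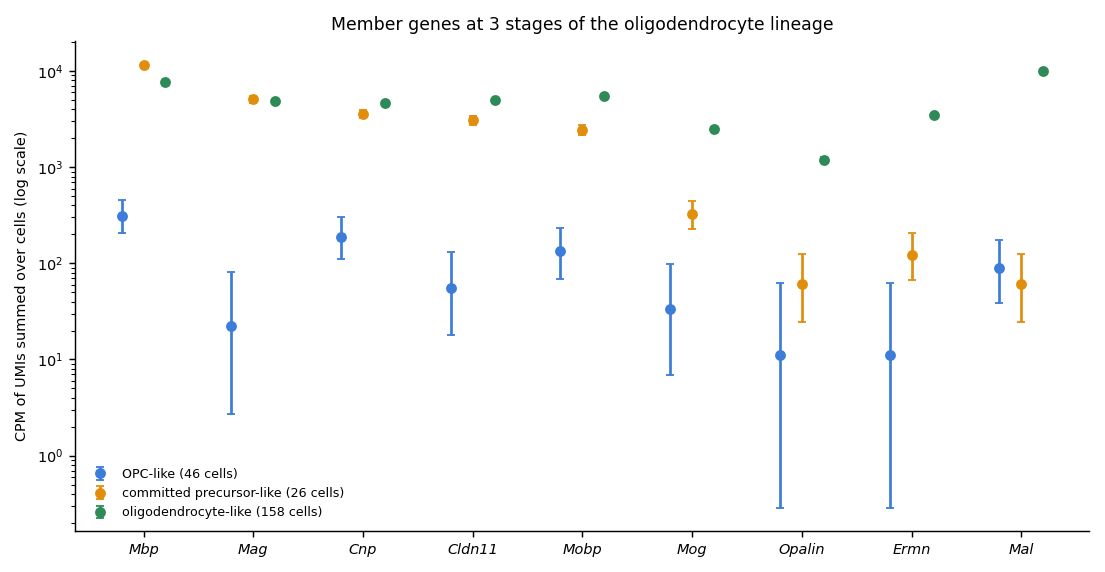
CPM of UMIs summed over all cells (logarithmic axis) for each gene in OPC-like, committed precursor-like and oligodendrocyte-like cells; bars are 95% exact Poisson intervals and cover counting error only. In these sums Mbp, Mag, Cnp, Cldn11 and Mobp stand at 43.8% or more of the oligodendrocyte-like level in committed precursor-like cells, whereas Mal, Ermn and Opalin stay at or below 122 CPM there.

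Outside the lineage, 2 genes departed from the rest. Mal in endothelial-like cells stood at 602 CPM ± 148 (SD, n = 6 mice). Its values were 519, 722 and 687 CPM after placebo, and 527, 387 and 772 CPM after EPO. Mal was higher in endothelial-like than in glutamatergic-like, astrocyte-like and mural-like cells in 6 of 6 mice, and than in barcodes with 500 genes or fewer in 6 of 6. It supplied 61.7% of the member UMIs of endothelial-like cells, against 22.3% in oligodendrocyte-like cells and 10.7% in barcodes with 500 genes or fewer. Thinned to 800 UMIs, 35.2% of endothelial-like cells had a Mal UMI (95% exact interval 25.3 to 46.1%), compared with 4.76% of neuron-like cells and 2.59% of astrocyte-like cells. Before thinning the shares were 59.3, 22.5 and 9.91%, at median depths of 1667, 3612 and 1721 UMIs. In contrast, Mbp was at 105 CPM and Mog at 1 UMI in endothelial-like cells.

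Cnp was the other exception, in astrocyte-like cells. It stood at 161 CPM ± 29.8 (SD, n = 6), with 154, 114 and 143 CPM after placebo and 197, 182 and 174 CPM after EPO. These values lay above those of glutamatergic-like cells in 6 of 6 mice, where Cnp ran from 16.7 to 87.9 CPM. Cnp supplied 28.4% of the member UMIs of astrocyte-like cells, against 10.4% in oligodendrocyte-like cells and 4.51% in barcodes with 500 genes or fewer. It exceeded the level in barcodes with 500 genes or fewer in 3 of 6 mice only, and that of microglia-like cells in 3 of the 5 mice that had both. Thinned to 800 UMIs, a Cnp UMI was found in 11.6% of astrocyte-like cells (7.81 to 16.5%) and in 3.57% of neuron-like cells. Without thinning these shares were 25.4 and 14.96%. The part of the overlapping Dnajc7 transcript in this value was not tested. No astrocyte-like cell reached the lowest share of member UMIs seen in an oligodendrocyte-like cell.

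Neuron-like cells, glutamatergic-like and GABAergic-like together, carried the 9 genes at a low level that differed 4.93-fold between mice. The summed level was 1119, 1096 and 227 CPM after placebo, and 324, 535 and 324 CPM after EPO. Both the highest and the lowest value thus lay in placebo mice. Relative to oligodendrocyte-like cells of the same mouse, the level was between 0.469 and 2.84%. Of 929 neuron-like cells, 322 had no UMI of any member, although the median depth was 3612 UMIs. The 10 cells with the most member UMIs held 17.9% of the 2802 found, and 4 cells reached the range of oligodendrocyte-like cells, 1 of which was called a doublet.

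The barcodes with 500 genes or fewer held the same transcripts at a higher level. Their summed level was 2830, 5646 and 2624 CPM after placebo, and 3141, 3103 and 2511 CPM after EPO. Placebo mouse 3, which had the fewest cells, stood apart from the other mice, which lay within 2511 to 3141 CPM. Neuron-like cells carried 39.6, 19.4 and 8.65% of the level of these barcodes after placebo, and 10.3, 17.2 and 12.9% after EPO. Mitochondrial UMIs, a median of 36.6% per such barcode and 12.97% per neuron-like cell, are part of these totals.

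The make-up of the member UMIs differed between intact oligodendrocyte-like cells and the background. Mbp supplied 17.6% ± 1.80 of member UMIs in oligodendrocyte-like cells (SD, n = 6 mice) but 43.4% ± 7.95 in barcodes with 500 genes or fewer. Mobp supplied 12.7% ± 1.04 and 24.9% ± 5.15, respectively. Both shares were higher in the background in 6 of 6 mice. Conversely, the shares of the other 7 genes were lower in the background in all 6 mice, with Cldn11 falling from 11.4% ± 1.37 to 3.41% ± 1.54 and Mog from 5.61% ± 0.418 to 1.88% ± 0.830. In neuron-like cells Mbp supplied 37.5% ± 11.1 and Mobp 18.5% ± 5.99, above oligodendrocyte-like cells in 6 of 6 mice for both genes. The Mobp share of neuron-like cells lay between those of oligodendrocyte-like cells and of the background in 6 of 6 mice, and that of Mbp in 4 of 6. By gene, the background held 17.8% of the oligodendrocyte-like level of Mbp and 14.4% of that of Mobp on average over mice, compared with 2.12 to 3.65% for the other 7 genes. A source of these transcripts other than oligodendrocytes was not tested.

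**Figure D3:**
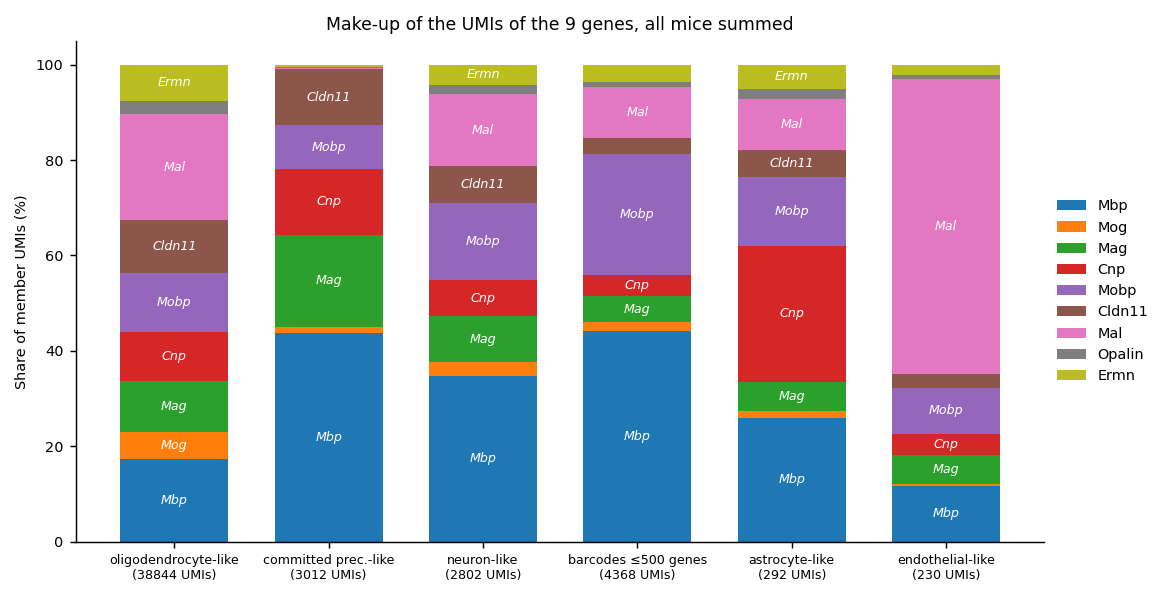
Share of each gene among the UMIs of the 9 genes (percent, all mice summed) in 6 sets of barcodes, with the number of UMIs under each bar. Mbp and Mobp make up more of the bar in barcodes with 500 genes or fewer than in oligodendrocyte-like cells, Mal dominates endothelial-like cells, and Cnp takes its largest share in astrocyte-like cells.

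EPO was then compared with placebo, first within oligodendrocyte-like cells, on UMIs summed per mouse and tested over all genes with edgeR's quasi-likelihood test and Benjamini-Hochberg adjustment. None of the 9 genes was called, as was true of all genes: 0 of 1637 tested passed an adjusted p of 0.05 (0%), 24 had an unadjusted p under 0.05, and DESeq2 and limma also called 0. Beside the unexplained D number, the labels say only that the mice are separate, so p-values are read as measuring the spread between mice. Treatment and D number are partly confounded, and the tests without a D block do not part them. Placebo mouse 1 and EPO mouse 4 shared barcodes, so their libraries may not be independent. Log2 fold changes of the 9 genes ranged from -0.08 for Ermn to 0.29 for Mal, with a median of 0.13, beside -0.01 over all genes tested, and 1 of 9 was below 0, beside 52% of genes. Mbp was 6942, 8915 and 8529 CPM after placebo, and 10204, 7083 and 7789 CPM after EPO. The groups overlapped, and the log2 fold change was 0.02 (SE 0.20; 95% interval -0.41 to 0.45; adjusted p = 1.00). Over all 9 genes the 95% intervals stayed within -0.49 and 0.70 on the log2 scale.

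Mal was the only member whose groups did not overlap. It was 8752, 7518 and 10074 CPM after placebo, and 10604, 10908 and 11367 CPM after EPO. All EPO mice lay above all placebo mice, as did 4.09% of the genes tested, and the log2 fold change was 0.29 (SE 0.20; interval -0.12 to 0.70; adjusted p = 1.00). Without barcodes found in more than 1 mouse, the log2 fold changes of Mbp, Mag and Opalin turned from 0.02, 0.04 and 0.05 to -0.10, -0.08 and -0.08, all within 1 SE of 0. Leaving out 1 mouse at a time, between 5 and 8 of the 9 genes were above 0, with 5 above 0 without placebo mouse 1. The summed level of the 9 genes was 4.45% ± 0.458 of UMIs after placebo and 4.94% ± 0.584 after EPO. It differed by 1.03 percentage points within D1 and by -0.0683 within D2.

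**Figure D4:**
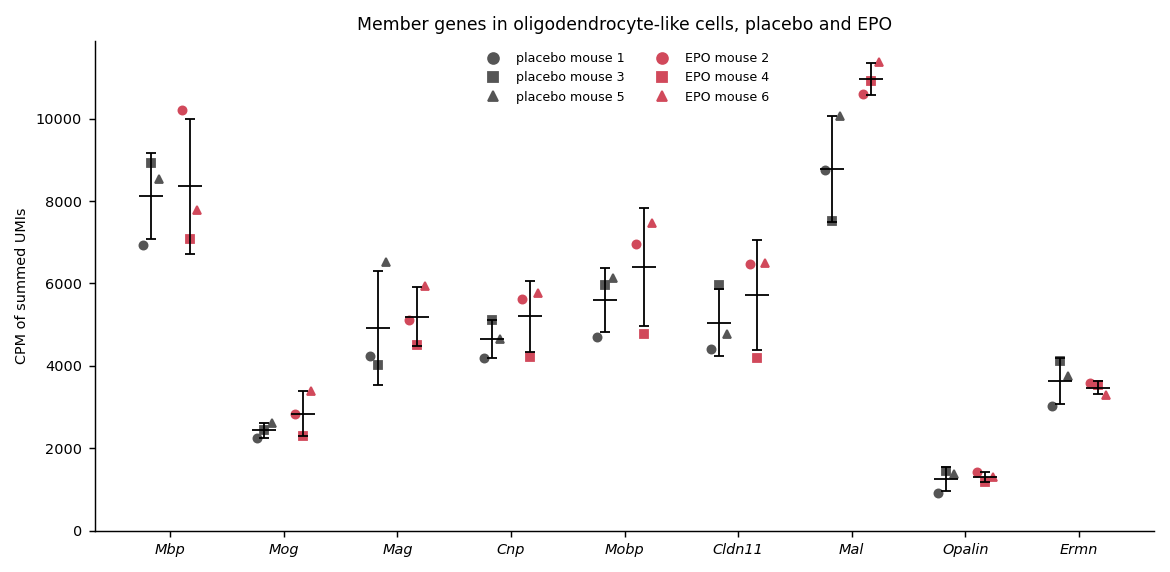
CPM of each gene in oligodendrocyte-like cells of the 3 placebo mice (grey) and the 3 EPO mice (red); horizontal bars are means and vertical bars SD. The groups overlap for every gene except Mal.

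Over all retained cells, which mixes the level per cell with the number of oligodendrocytes, the 9 genes were lower after EPO without passing the test. In such sums fewer cells of a type and less RNA per cell cannot be told apart. Log2 fold changes ran from -0.84 for Ermn to -0.39 for Mal, with a median of -0.63, and all 9 were below 0, as were 51.4% of the 10551 genes tested. The called share was 0%, the adjusted p of every member was 1.00, and 138 genes had an unadjusted p under 0.05. DESeq2 called 1 gene, which was no member, and limma 0. The size of the change rested on single mice: without placebo mouse 3 the 9 values ran from -0.28 to -0.06, and without placebo mouse 5 from -1.26 to -0.75, with no member called. With the D number as a replicate block they ran from -0.30 to 0.03, and without barcodes found in more than 1 mouse from -0.75 to -0.19. The summed level was 0.821, 1.22 and 0.325% of UMIs after placebo, and 0.527, 0.681 and 0.398% after EPO. Placebo mice 1 and 3 lay above all EPO mice, and placebo mouse 5 lay below them. Within D1 the difference was -0.496 percentage points, with mouse 2 as the only EPO mouse. Within D2 it was 0.215, with mouse 5 as the only placebo mouse. The change of sign thus rests on single mice and cannot be tied to the D number.

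The share of UMIs from oligodendrocyte-like cells followed the same order of mice. They held 16.8, 25.2 and 5.76% of retained UMIs after placebo, and 8.91, 13.9 and 6.09% after EPO. As a share of cells they made up 10.5% (95% exact binomial interval 7.18 to 14.8), 14.4% (7.92 to 23.4) and 9.40% (6.44 to 13.2) after placebo, and 5.93% (3.36 to 9.59), 13.3% (10.2 to 17.04) and 5.86% (3.45 to 9.22) after EPO. By cells the order differed, with EPO mouse 4 above placebo mouse 1 and placebo mouse 5 above EPO mice 2 and 6. The group means were 11.5% ± 2.64 and 8.37% ± 4.29 (SD, n = 3), which did not differ beyond the spread between mice (exact permutation test, two-sided p = 0.30, where 0.1 is the smallest p possible with 3 against 3 mice). The difference was -6.57 percentage points within D1 and 0.193 within D2. The precursor cluster made up 4.15% ± 2.46 and 4.38% ± 0.960 of cells, respectively (exact permutation p = 0.90).

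Neuron-like cells and the background were compared in the same way. In neuron-like cells all 9 log2 fold changes were below 0, from -1.68 for Mog to -0.78 for Cldn11 with a median of -0.95, whereas the median over the 9006 genes tested was 0.00 and 49.6% were below 0. The direction rested on placebo mouse 1 for 4 of the 9: without it Mag became 0.73, Cldn11 0.61, Cnp 0.20 and Mal 0.11. With the D number as a replicate block Mbp became 0.02. Without barcodes found in more than 1 mouse all 9 were below 0, from -1.46 for Mog to -0.35 for Cldn11. None was called, nor was any other gene (0%), and DESeq2 and limma also called 0. An unadjusted p under 0.05 was found for 163 genes, among them 2 of the 9 members, Mog and Mobp. Mobp was 181, 323 and 35.2 CPM after placebo, and 57.6, 64.8 and 65.3 CPM after EPO, with a log2 fold change of -1.38 (SE 0.52; adjusted p = 1.00). The EPO mice lay together, between placebo mouse 5 and the other placebo mice. Without placebo mouse 5, Mobp was called (log2 fold change -2.03, adjusted p = 0.0053). The difference of the summed level was -0.0784 percentage points of UMIs within D1 and 0.0202 within D2.

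In barcodes with 500 genes or fewer, 8 members were tested, since Opalin was too low. All 8 log2 fold changes were below 0, from -0.99 for Ermn to -0.22 for Mbp, beside 50.3% of the 2783 genes tested. Mbp and Mobp turned to 0.39 and 0.46 without placebo mouse 3, to 0.13 and 0.07 without EPO mouse 6, and to 0.22 and 0.21 with the D number as a replicate block. Without barcodes found in more than 1 mouse the 8 values ran from -0.97 to -0.20. None was called, nor was any other gene (0%), and DESeq2 and limma also called 0. An unadjusted p under 0.05 was found for 85 genes, among them 4 of the 8 members, Ermn, Cnp, Cldn11 and Mal. This count is a description without a test. Ermn was 136, 162 and 151 CPM after placebo, and 51.7, 99.5 and 92.3 CPM after EPO. All EPO mice lay below all placebo mice, as for 1.04% of genes tested, with a log2 fold change of -0.99 (SE 0.29; adjusted p = 1.00). Mbp, by contrast, was 1194, 2775 and 879 CPM after placebo, and 1691, 1440 and 886 CPM after EPO, so that its groups overlapped.

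**Figure D5:**
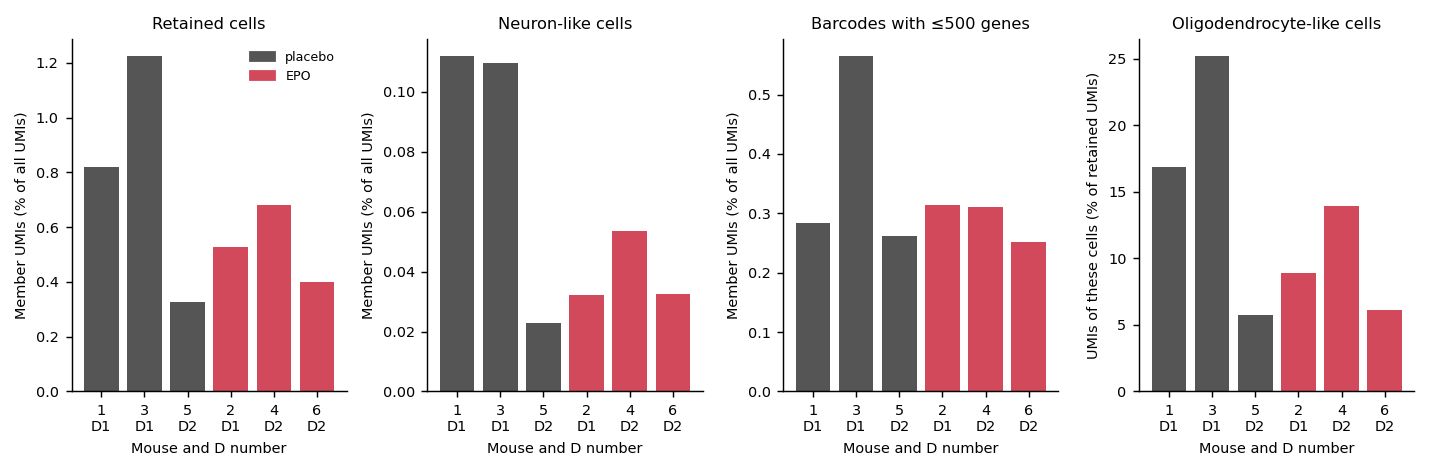
UMIs of the 9 genes as percent of all UMIs per mouse in retained cells, in neuron-like cells and in barcodes with 500 genes or fewer, and, in the last panel, UMIs of oligodendrocyte-like cells as percent of retained UMIs; bars are single mice with their D number. Placebo mice 1 and 3 have the highest and placebo mouse 5 the lowest values in the retained, neuron-like and last panels, with the EPO mice between them.

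Further genes of myelin and of the oligodendrocyte lineage, a list of 35, gave a like result. In oligodendrocyte-like cells 31 of the 35 were tested, 0 were called in either direction, and their median log2 fold change was -0.08. The smallest p in the list belonged to Pllp, a myelin membrane protein, with 755, 921 and 585 CPM after placebo, and 949, 823 and 1084 CPM after EPO (log2 fold change 0.30, SE 0.22, adjusted p = 1.00). Over all retained cells 0 of 32 were called (smallest p for Cryab, a small heat shock protein, log2 fold change -1.06). In neuron-like cells 0 of 19 were called (Car2, a carbonic anhydrase, -1.03), and in barcodes with 500 genes or fewer 0 of 16 (Qdpr, a pteridine reductase, -1.22). Among all genes, the smallest p belonged to Cst3 in oligodendrocyte-like cells (log2 fold change -1.06), Rarres2 over all cells (-2.58), Sema3c in neuron-like cells (-2.59, adjusted p = 0.38) and Stard9 in barcodes with 500 genes or fewer (2.07), none of which passed the adjusted threshold.

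The genes most alike in pattern to the summed members were sought over 46 sums of 1 class in 1 mouse. Among 6391 genes, those with the highest Pearson correlation on log2(CPM + 10) included Fa2h, which hydroxylates fatty acids of myelin lipids (r = 0.92), Ugt8a (0.92), the protease Adamts4 (0.91), the connexin Gjc3 (0.91), Tmem88b (0.91), Tmem125 (0.89) and the transcription factor St18 (0.89). Points of 1 mouse share a library, and points of 1 class share a cell type, so these values are descriptive. They differed in stage: Fa2h stood at 157 CPM in committed precursor-like and 485 CPM in oligodendrocyte-like cells, whereas Adamts4 stood at 619 and 330 CPM and Gjc3 at 1412 and 928 CPM. Among the members, each against the sum of the other 8, Cldn11 was most alike (r = 0.91) and Mal least (r = 0.47).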

How the data were processed

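The authors prepared Drop-seq libraries of dissociated CA1 from 6 mice and deposited 1 table of UMI counts, whole numbers that are not normalized, for 20234 genes and 1000 barcodes per mouse. The processing notes name bcl2fastq 2.15, STAR 2.4.0 and mm10; how strand and multiply mapped reads were treated is not given in the sources used here. Genes left empty in a mouse were read as 0. No column of another sample was present.

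Barcodes with more than 500 and up to 8000 genes and at most 40% of UMIs from mt- genes were retained. Cells were integrated over treatments and clustered with Seurat 5.3.0 (anchors by canonical correlation, 20 dimensions, resolution 1) without the 9 genes, and clusters were named from other markers. Committed precursor-like cells come from resolution 2. Scrublet (scanpy 1.11.5) called 19 cells (1.16%) as doublets, which were kept. Levels are CPM of UMIs summed over cells, given per mouse with at least 5 cells. Shares of cells were also computed after thinning to 800 UMIs, which left out 3 placebo and 9 EPO cells.

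Sums per mouse were tested with edgeR 4.0.16 (quasi-likelihood, TMM, filterByExpr with a minimum count of 10 and total of 15, Benjamini-Hochberg over all genes tested), with DESeq2 1.42.0 and limma 3.58.1 as alternatives. In simulated data the edgeR step recovered 81.5% of 200 genes changed 4-fold over all retained cells (10337 genes), 83.5% in oligodendrocyte-like cells (1725), 87.0% in neuron-like cells (8926) and 78.5% in barcodes with 500 genes or fewer (2458). With no gene changed it called 8, 0, 0 and 0 genes. Every main fitted change of the 9 genes was smaller than 4-fold, so the recovered shares do not give the power at the sizes seen. Counts were drawn gene by gene, without the barcodes shared by mice. Shares of cells were compared with a two-sided exact permutation test.

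The genes, lists and tests were chosen with earlier results of these data known. Named beside the 9 genes are, per comparison, the gene with the smallest p overall and in the list of 35, and the 8 genes most alike in pattern, among genes with at least 200 UMIs and over sums of at least 5000 UMIs. Of these, 1 gene is not reported here.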

Additional observations from a re-analysis of the deposited data

How the results depend on the processing

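With other size factors, limma, mitochondrial genes left out, other limits on barcodes and the D number as a replicate block, 0 genes were called for EPO against placebo in each set of barcodes, and with resolutions 0.5 and 2, run for oligodendrocyte-like and neuron-like cells, also 0. Without a filter on low counts 21 genes were called over all retained cells, 1 in oligodendrocyte-like cells, 18 in neuron-like cells and 10 in barcodes with 500 genes or fewer. DESeq2 called 1 over all cells. Leaving out 1 mouse gave 0 to 5 calls in neuron-like cells (5 without placebo mouse 5) and 0 in the other sets. Mobp in neuron-like cells was called without the filter (log2 fold change -1.32, adjusted p = 0.011) and without placebo mouse 5 (-2.03).

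Several log2 fold changes changed sign, and the cause was not tested. In oligodendrocyte-like cells Mbp became -0.030 with more than 1000 genes per cell, -0.0040 at resolution 0.5, -0.0053 with the 9 genes kept for clustering and -0.10 without barcodes of more than 1 mouse. Mag became -0.032 with the replicate block, -0.074 with more than 1000 genes and -0.081 without barcodes of more than 1 mouse, and Opalin -0.082 in the last. Leaving out 1 mouse, Mbp ran from -0.17 to 0.11, Mag from -0.10 to 0.31, Opalin from -0.13 to 0.15 and Ermn from -0.18 to 0.0015. With the replicate block Mal over all cells became 0.026, Mbp in neuron-like cells 0.019, and Mbp and Mobp in barcodes with 500 genes or fewer 0.22 and 0.21, while Mbp became 0.014 in barcodes with 300 genes or fewer. Leaving out 1 mouse in neuron-like cells, Mag ran from -1.63 to 0.73, Cnp from -1.59 to 0.20, Cldn11 from -1.46 to 0.61 and Mal from -1.68 to 0.11, with the highest values without placebo mouse 1. In barcodes with 500 genes or fewer Mbp ran from -0.72 to 0.39 and Mobp from -0.81 to 0.46, highest without placebo mouse 3.

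The share of oligodendrocyte-like cells stayed lower after EPO under every alternative run. The exact permutation p was 0.33 when permuted within D numbers, where 9 arrangements also allow no p under 0.05. The summed level in oligodendrocyte-like cells, and that of neuron-like cells relative to barcodes with 500 genes or fewer, moved by less than 1 SD between mice under every alternative run. Mal in endothelial-like cells was 766 CPM after thinning, against 602 CPM. With 26 committed precursor-like and 46 OPC-like cells, small differences between mice were not detectable in these classes.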
